A study of Mus musculus with 6 samples.

Results

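The genes described here encode the machinery that licenses origins of DNA replication and runs the replication fork. They form a list of 56 genes chosen by function, with earlier results of these data known. Of these, 54 were found by symbol among the 17872 genes of the deposited count table. Cdt1 and Gins2 were not analysed here. All 54 had enough reads to be tested among the 13403 genes tested. The cells were BV2, mouse microglia immortalised as a line, with 3 libraries in each of 2 groups. One group is labelled WT and the other Tfam knockout, made with CRISPR-Cas9. The product of Tfam coats mitochondrial DNA and is needed to transcribe it. Both groups carry the treatment label none, puromycin selection at 2 μg/mL is given for cells after editing, and neither the guide, nor whether the edited cells were 1 clone, nor what the control cells carried is stated in the sources used here.

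Before S phase, the origin recognition complex (ORC), Cdc6 and Cdt1 load the ring-shaped MCM2-7 helicase onto origins, a step called licensing, and geminin (Gmnn) blocks Cdt1 so that origins are not loaded again. In S phase the kinase Cdc7-Dbf4, together with Ticrr, Mcm10, Cdc45 and the GINS complex, turns the loaded ring into an active helicase. Polymerases alpha, delta and epsilon then copy the strands, and the RFC complex loads the sliding clamp PCNA. Chromatin assembly factors and Dnmt1 restore nucleosomes and DNA methylation behind the fork. Many of these genes are textbook targets of E2F transcription factors, and their mRNAs are known to be more abundant in dividing than in resting cells.

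Library totals ran from 13.85e6 to 28.42e6 counts, and the deepest was a wild type library. Tfam mRNA was at 38.2 ± 1.01 CPM in wild type and at 42.3 ± 1.15 CPM in the other group (SD, n = 3 each), from 524 to 1098 raw counts per library. CPM are counts per 1e6 counts after TMM scaling, edgeR's correction for library composition. Tfam mRNA was thus not lower in the group meant to lack the gene (log2 fold change 0.14, adjusted p = 0.193, edgeR), its level does not check the label, and every direction below is between wild type and "labelled knockout" libraries. Mitochondrial genes took 3.52 to 4.31% of counts in wild type and 1.37 to 1.42% in the labelled knockout libraries. Of 13 microglia and macrophage markers, 11 were in the table. Their summed level was 3100 to 3440 CPM in wild type and 2390 to 2630 CPM in the labelled knockout libraries. Of these 11, Aif1, Cx3cr1 and Tmem119, 3 defining markers, had mean levels of 2.97, 1.82 and 0.52 CPM in wild type. The other markers thus carried nearly all of the wild type sum. Summed markers of astrocytes, neurons and endothelium stayed at or below 4.54 CPM in every library. The oligodendrocyte sum, mostly Mbp, was 24.4 to 25.5 CPM in wild type and 11.9 to 14.2 CPM in the labelled knockout libraries, and the 1 fibroblast marker in the table, Pdgfra, was at 1.42 to 2.55 and 0.236 to 0.574 CPM. The part of these shifts in the results below was not tested. The labels do not state that libraries came from separate cultures, so the p-values describe the spread among these 6 libraries only.

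Each of the 54 replication genes was either called higher in the labelled knockout libraries or did not pass the test used here. Of the 54 genes, 34 rose and none fell at an adjusted p below 0.05 (edgeR's quasi-likelihood test, Benjamini-Hochberg adjustment over all tested genes), with 20 not passing. Of all tested genes 44.2% changed: 21.3% rose and 22.9% fell. The median log2 fold change of the 54 was 0.39, against 0.00 over all tested genes, and the values ran from -0.28 (Rpa3) to 1.15 (Mcm10). Changes were moderate: called genes rose 1.17-fold (Pola2) to 2.21-fold (Mcm10), and 19 of the 54 genes were called and at least 1.5-fold higher, against 8.21% of all tested genes. Together the 54 genes took 0.304 to 0.356% of counts in wild type and 0.448 to 0.459% in the labelled knockout libraries, and these ranges do not overlap.

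The direction was shared by the labelled knockout libraries. The 3 labelled knockout libraries stood above all 3 wild type libraries for 39 of the 54 genes and below them for 3 (Orc3, Rfc2 and Slbp), against 26.3% and 26.6% of all tested genes. Relative to the wild type mean of each gene, the median over the 54 genes was 0.42, 0.35 and 0.38 on the log2 scale in labelled knockout libraries 1 to 3, and 0.08, -0.05 and -0.04 in wild type libraries 1 to 3. In RNA from whole cultures, a larger share of cells in S phase and more of these mRNAs per cell cannot be told apart.

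**Figure D1:**
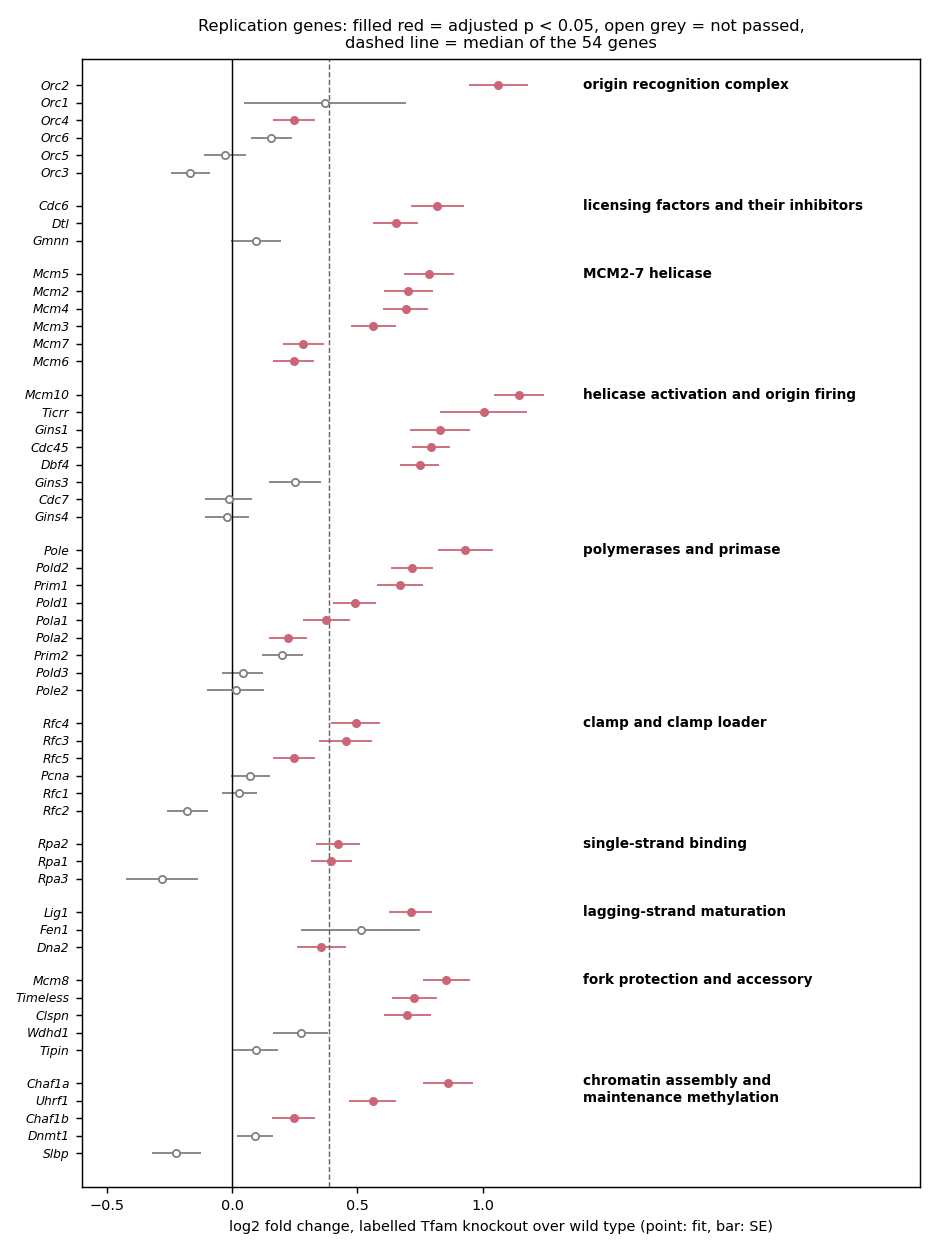
Log2 fold change of each of the 54 replication genes (labelled Tfam knockout over wild type, fitted value with its standard error as bar), grouped by role; filled red points passed at an adjusted p below 0.05 and open grey points did not. The dashed line is the median of 0.39. Each group has at least 1 gene near 0.4 or above, and 5 groups also hold genes below 0 (ORC, helicase activation, clamp and loader, single-strand binding and chromatin assembly).

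**Figure D2:**
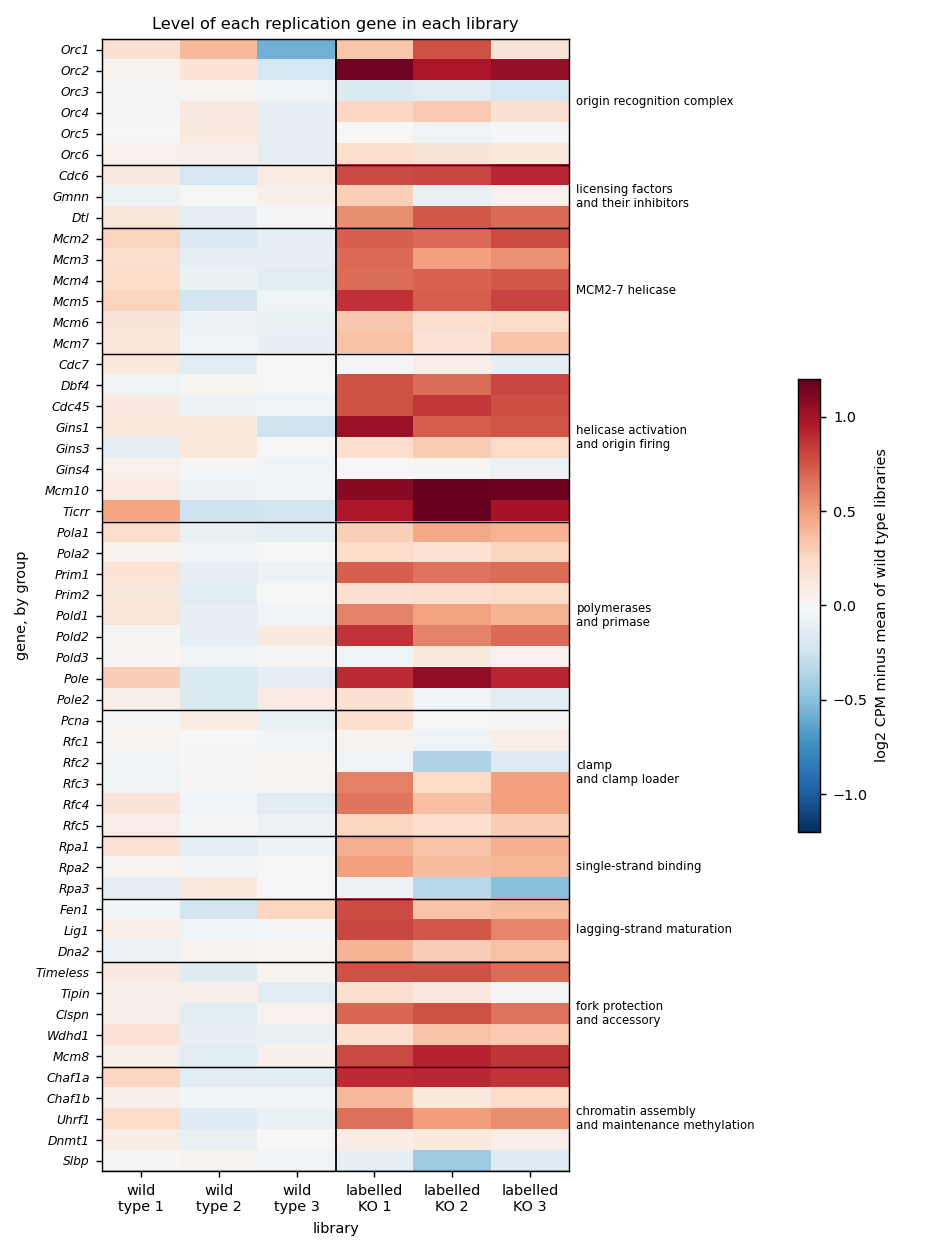
Level of each replication gene in each of the 6 libraries, as log2 CPM minus the mean of the 3 wild type libraries (red higher, blue lower, scale from -1.2 to 1.2). All 3 labelled knockout columns exceed all 3 wild type columns for 39 genes, and wild type 1 is redder than the other wild type columns across MCM2-7.

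In the origin recognition complex, which marks origins and recruits the other licensing factors, 2 of 6 subunits rose. This is 33.3%, against 21.3% of all tested genes, and rests on few genes. The same 21.3% stands beside the count that rose in each group below. Higher groups without overlap were seen in 26.3% of all tested genes. Orc2, a core subunit, was at 13.4, 14.7 and 11.3 CPM in wild type and at 29.4, 25.8 and 27.2 CPM in the labelled knockout libraries, so that the lowest labelled knockout library was well above the highest wild type one. Its log2 fold change was 1.06 ± 0.118 (SE; adjusted p = 1.52e-06, edgeR). Orc4 rose 1.19-fold (adjusted p = 0.0248, edgeR), a call lost without wild type 3 or labelled knockout 2 (adjusted p up to 0.102). Orc2 shares 1150 exon bases with Nif3l1 on the opposite strand, and reads there cannot be assigned without strand; Nif3l1 itself did not pass (1.11-fold, adjusted p = 0.125, edgeR). The other subunits were Orc6 at a log2 fold change of 0.16, Orc5 at -0.03 and Orc3 at -0.17. For Orc5 the sign turned to 0.07 when libraries were scaled by their totals. Orc1, the subunit whose protein is known to cycle, had 16 to 54 counts per library, and its fold change of 1.29 has a wide error (log2 0.37 ± 0.324, SE).

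Of the licensing factors and their inhibitors, Cdc6 and Dtl rose and geminin did not pass. Cdc6, the ATPase that joins ORC to load the helicase, was at 21.0, 16.8 and 20.8 CPM in wild type and at 33.6, 34.0 and 36.3 CPM in the labelled knockout libraries (1.77-fold, adjusted p = 9.4e-06, edgeR). Dtl, the substrate receptor of the ubiquitin ligase that destroys Cdt1 in S phase, was at 47.1, 39.7 and 42.2 against 63.2, 71.8 and 68.5 CPM (1.57-fold). In both genes the groups are clearly apart. Gmnn, the Cdt1 inhibitor, was at 42.6, 44.3 and 46.4 against 54.1, 41.8 and 45.9 CPM, groups that overlap (log2 fold change 0.09 ± 0.10, SE). The planned ratio of Cdt1 to Gmnn could not be computed.

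All 6 subunits of the MCM2-7 ring, the motor of the replicative helicase, rose in the labelled knockout libraries, with no overlap between the groups for any of them. Mcm5 changed most, from 117, 83.4 and 93.7 CPM to 178, 161 and 170 CPM (log2 fold change 0.79 ± 0.0992, SE; adjusted p = 6.36e-06, edgeR). Mcm2 rose 1.63-fold, Mcm4 1.62-fold and Mcm3 1.48-fold. Mcm7 and Mcm6 rose least, 1.22-fold and 1.19-fold. Mcm6 was at 371, 320 and 313 CPM in wild type and 418, 381 and 391 CPM in the labelled knockout libraries, so its groups were close together. The call for Mcm6 was lost without wild type 2, wild type 3, labelled knockout 1 or labelled knockout 3 (adjusted p up to 0.107), and that for Mcm7 without wild type 3 (adjusted p = 0.0563). Wild type 1 was the highest wild type library for each of the 6; their median relative to the wild type mean was 0.21 there and -0.09 and -0.10 in the other two. Without wild type 1 the median log2 fold change of the 6 was 0.76, against 0.63 with all libraries.

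Per kilobase of the longest coding transcript, which need not be the one expressed, the subunit mRNAs were unequal although the ring holds 1 copy of each. Mcm7 has a copy of 97.7% identity over 2157 bases, so its place is uncertain where reads could map to either. In wild type, Mcm6 (76.8 ± 7.25 CPM per kilobase, SD, n = 3) and Mcm3 (74.8 ± 9.64) were highest and did not differ beyond their spread. Mcm7 (33.0 ± 2.99) and Mcm5 (29.0 ± 5.07) came next, also within their spread, and Mcm4 (18.0 ± 2.44) and Mcm2 (17.8 ± 3.02) were lowest and alike. In the labelled knockout libraries the order changed at the top, with Mcm3 at 110.7 ± 7.42 and Mcm6 at 91.1 ± 4.43, and Mcm5 (50.2 ± 2.54) was above Mcm7 (40.3 ± 2.67). The highest subunit was 4.31 times the lowest in wild type and 3.79 times in the labelled knockout libraries.

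**Figure D3:**
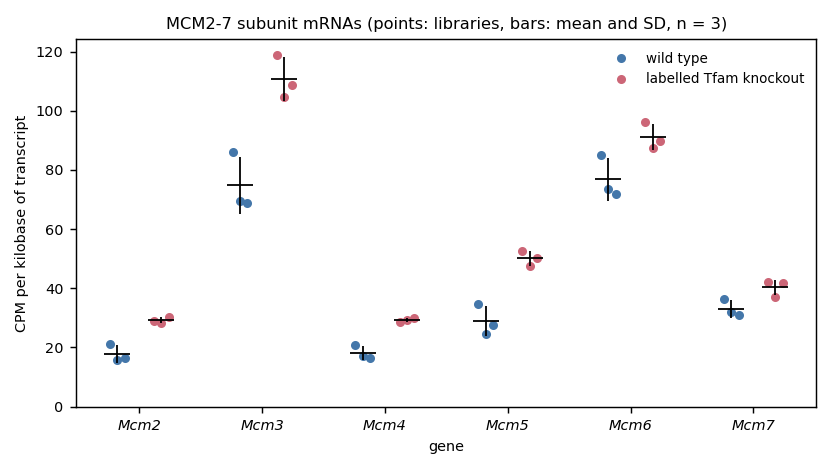
Levels of the MCM2-7 mRNAs in CPM per kilobase of the longest coding transcript, from 0, in each library (points) with the mean and SD of each group (black, n = 3; blue wild type, red labelled Tfam knockout). Mcm3 and Mcm6 stand highest in both groups, and for every subunit the red points lie above the blue ones.

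Promoters were searched on both strands for the E2F-type letters TTTCCCGC, TTTCGCGC, TTTGCCGC and TTTGGCGC. The window ran from 250 bases before to 50 after each annotated start. The promoters are RefSeq's, on build GRCm38.p6, and 46 of the 54 genes matched an entry. Such letters were found in 19 of the 46 (41.3%), in 4 of the 5 MCM2-7 genes with an entry (Mcm3, Mcm5, Mcm6 and Mcm7, not Mcm2), in 4.04% of the 12066 count table genes with a promoter entry, and in 2.6% of all 27025 genes with one. Matches of these MCM genes and of Cdc6 and Dtl are shown 5′ to 3′ on the gene's strand, with the matching letters in capitals and up to 9 bases on each side, fewer at the edge of the window; where 2 matches overlap, the capitals join them. Positions count from the annotated start, with 1 as its first base and -1 the base before it.
Mcm6 (chr1:128359795-128359824, minus strand, first matching base at position -110): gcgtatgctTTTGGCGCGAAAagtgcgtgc
Mcm6 (chr1:128359736-128359761, minus strand, position -47): ttggacgggTTTGGCGCgaagtagct
Mcm5 (chr8:75109347-75109376, plus strand, position -153): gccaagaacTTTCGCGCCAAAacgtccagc
Mcm3 (chr1:20820277-20820302, minus strand, position 20): acttccgtgGCGGGAAAacttgggaa
Mcm3 (chr1:20820263-20820283, minus strand, position 39): ttgggaagtTTTGGCGCcaag
Mcm7 (chr5:138172032-138172057, minus strand, position -165): tttcgaaccGCGGGAAAcagggtgtc
Mcm7 (chr5:138171851-138171876, minus strand, position 17): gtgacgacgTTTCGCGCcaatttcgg
Cdc6 (chr11:98908004-98908029, plus strand, position -138): cggtggagaGCGGGAAAtcgcctggg
Dtl (chr1:191575536-191575561, minus strand, position -8): tgacgtcagTTTGGCGCggagtttgg

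Genes that rose and genes that did not pass both carry such letters. The 19 genes with a match comprised 13 that rose and 6 that did not pass (median log2 fold change 0.45). The 27 without comprised 18 and 9 (median 0.40). Within MCM2-7, Mcm6, with 3 matches, rose least (1.19-fold), and Mcm2, with no match, rose 1.63-fold. Whether such letters bear on the changes was not tested. Orc3 and Pole2, which did not pass, are shown for comparison with the MCM sites above.
Orc3 (chr4:34614967-34614992, minus strand, first matching base at position -41): atgcctcccTTTCCCGCacgccccgc
Pole2 (chr12:69228164-69228189, minus strand, position 11): tcggcggtgGCGCCAAAtcgcgaaca
Of the other letters searched on both strands, none of which contains or lies within an E2F-type word, the CCAAT box (CCAAT) was in 63.0% of the 46 promoters against 42.4% of those of count table genes and 41.1% of all. The cell cycle homology region (TTTGAA or TTCGAA), an element known from mitotic genes, was in 21.7% of the 46, 17.6% of those of count table genes and 21.7% of all, against 21 of 28 mitotic genes with an entry. The upstream region of Mcm6 holds 3 E2F-type matches, 2 of them overlapping, and is given as an example, the 250 bases before its start at chr1:128359706-128359955 on the minus strand, matches in capitals.
Mcm6 upstream: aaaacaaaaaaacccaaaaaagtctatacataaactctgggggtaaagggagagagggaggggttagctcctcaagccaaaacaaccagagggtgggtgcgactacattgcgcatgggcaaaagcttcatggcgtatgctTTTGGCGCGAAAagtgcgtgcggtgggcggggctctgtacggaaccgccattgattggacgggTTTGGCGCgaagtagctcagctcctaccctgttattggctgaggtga

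Among the genes that activate the helicase and fire origins, 5 of 8 rose, with the highest median of the groups (0.77). Mcm10, which helps the assembled helicase start unwinding, rose from 18.6, 16.7 and 17.0 CPM to 37.2, 39.6 and 39.4 CPM, the largest change of the 54 genes (2.21-fold, adjusted p = 7.42e-08, edgeR). Ticrr, which brings Cdc45 to origins, was at 11.4, 6.97 and 7.08 CPM in wild type and 16.2, 19.7 and 16.5 CPM in the labelled knockout libraries (2.01-fold). Wild type 1 was again the highest of its group for Ticrr. Cdc45, a fixed part of the active helicase, rose 1.73-fold and the GINS subunit Gins1 rose 1.78-fold. The other GINS subunits did not pass: Gins3 was at 20.9, 24.6 and 22.6 against 26.0, 28.0 and 26.7 CPM (adjusted p = 0.0577, edgeR), and Gins4 at 36.6 ± 1.10 against 36.1 ± 1.08 CPM (SD, n = 3), with a log2 fold change of -0.02 that was 0.08 with library totals. Dbf4, the regulatory subunit of the firing kinase, rose from 49.1 ± 1.29 to 82.5 ± 3.88 CPM (1.68-fold, adjusted p = 7.2e-07, edgeR), whereas its catalytic partner Cdc7 was at 46.6, 39.0 and 42.7 against 42.4, 45.0 and 39.8 CPM, groups that overlap (-0.01, and 0.08 with library totals).

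In the polymerases and primase, 6 of 9 genes rose, with a median of 0.38. The catalytic subunit of polymerase epsilon, Pole, which copies the leading strand, was at 46.2, 33.3 and 34.6 CPM in wild type and 69.8, 78.6 and 71.0 CPM in the labelled knockout libraries (1.91-fold, adjusted p = 3.17e-06, edgeR). Its second subunit Pole2 was at 23.9, 20.2 and 24.3 against 25.8, 22.3 and 20.9 CPM and did not pass. For polymerase delta, which copies the lagging strand, the small subunit Pold2 rose 1.64-fold and the catalytic subunit Pold1 1.40-fold, while Pold3 had overlapping groups (58.7, 56.4 and 58.2 against 55.8, 62.6 and 60.0 CPM). For the polymerase alpha-primase complex, which lays down primers, the primase catalytic subunit Prim1 rose 1.59-fold, Pola1 1.30-fold and Pola2 1.17-fold. Prim2, the large primase subunit, was at 73.3, 61.1 and 66.5 against 75.6, 77.3 and 78.3 CPM (adjusted p = 0.0573, edgeR). The call for Pola2 was lost with the replicate number as a block and without wild type 2, wild type 3 or labelled knockout 3 (adjusted p up to 0.108).

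For the sliding clamp and its loader 3 of 6 genes rose, with the lowest median of the groups (0.16). Pcna, which encircles DNA, was at 247, 265 and 237 CPM in wild type and 286, 249 and 252 CPM in the labelled knockout libraries. The groups overlap, and the log2 fold change was 0.07 ± 0.0792 (SE; adjusted p = 0.489, edgeR). At 164 ± 9.57 CPM per kilobase (SD, n = 3) in wild type it was the most abundant of the 54 mRNAs per length. Of the loader subunits, Rfc4 rose 1.41-fold, Rfc3 1.37-fold and Rfc5 1.19-fold, the last a call lost with the replicate block and without wild type 2, wild type 3 or labelled knockout 3 (adjusted p up to 0.102). Rfc1, the large subunit, had a log2 fold change of 0.03, and -0.05 once length and GC content of transcripts entered as offsets. Rfc2 was at 101, 104 and 105 against 100, 80.3 and 92.6 CPM (adjusted p = 0.0866, edgeR); it shares 952 exon bases with Lat2 on the opposite strand, which fell (0.72-fold). Pcna has a near-identical copy, Pcna-ps2 (99.2% over 781 bases), and copies at 95% identity or more also exist for Mcm7, Uhrf1, Cdc6, Rfc5, Slbp and Wdhd1, so these counts are uncertain where reads could map to either.

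In RPA, the heterotrimer that coats single-stranded DNA, 2 of 3 subunits rose. Rpa1 rose from 106, 87.2 and 89.8 to 127, 119 and 127 CPM (1.32-fold) and Rpa2 from 34.0, 32.4 and 33.1 to 46.6, 43.0 and 43.8 CPM (1.34-fold). Rpa3, the smallest subunit, was at 11.98, 14.14 and 13.02 against 12.37, 10.34 and 9.21 CPM, groups that overlap, and did not pass (log2 fold change -0.28 ± 0.144, SE; adjusted p = 0.125, edgeR); it passed as lower without labelled knockout 1. In lagging-strand maturation, Lig1, the ligase that seals Okazaki fragments, rose 1.64-fold (42.3 ± 1.58 to 69.3 ± 5.17 CPM, SD, n = 3) and the nuclease Dna2 rose 1.28-fold (20.9 ± 0.89 to 26.7 ± 0.971 CPM). The flap endonuclease Fen1 was at only 2.95, 2.61 and 3.61 against 5.19, 3.85 and 3.91 CPM, and did not pass (adjusted p = 0.091, edgeR). In GENCODE release M21, 1909 exon bases of Fen1 are shared with Gm10143 on the opposite strand, and reads there cannot be assigned without strand.

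Fork protection and accessory genes rose in 3 of 5 cases, with a median of 0.70. Timeless, which keeps polymerase and helicase coupled, rose from 40.7, 34.2 and 38.8 to 64.0, 64.2 and 60.1 CPM (1.65-fold, adjusted p = 5.09e-06, edgeR). Its obligate partner Tipin was at 57.1, 56.8 and 49.8 against 62.7, 58.5 and 53.4 CPM, which overlap. Clspn, the mediator of the replication checkpoint, rose 1.62-fold. Mcm8, an MCM relative outside the ring that acts in homologous recombination, rose 1.81-fold (26.9 ± 2.05 to 48.7 ± 2.30 CPM, SD, n = 3). Wdhd1, which links polymerase alpha to the helicase, was just short of the threshold (1.21-fold, adjusted p = 0.0506, edgeR) and passed in 5 of 15 alternative analyses.

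Of the genes for chromatin and DNA methylation behind the fork, 3 of 5 rose, with a median of 0.24. Chaf1a, the large subunit of chromatin assembly factor 1, rose from 52.3, 39.8 and 40.1 to 81.0, 81.6 and 79.0 CPM (1.82-fold, adjusted p = 2.28e-06, edgeR), and Chaf1b 1.18-fold, a call lost without wild type 2, wild type 3, labelled knockout 1 or labelled knockout 3 (adjusted p up to 0.133). Chaf1a shares 4648 exon bases with Ubxn6 on the opposite strand, which was higher as well (1.32-fold), a call lost without wild type 2 (adjusted p = 0.0638, edgeR). Uhrf1, which brings Dnmt1 to newly copied DNA, rose 1.48-fold (69.0 ± 10.2 to 102 ± 5.76 CPM, SD, n = 3). Dnmt1, the maintenance methyltransferase, was at 180, 159 and 169 against 180, 183 and 178 CPM and did not pass (1.07-fold). Slbp, which binds the stem-loop of replication-dependent histone mRNAs, was at 47.2, 48.2 and 45.0 against 43.8, 34.5 and 41.9 CPM, lower in all 3 labelled knockout libraries but not past the threshold (adjusted p = 0.0776, edgeR).

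Set side by side by role, the medians were 0.20 for ORC, 0.65 for licensing factors and their inhibitors, 0.63 for MCM2-7 and 0.77 for helicase activation. They were 0.38 for the polymerases, 0.16 for clamp and loader, 0.40 for RPA and 0.51 for lagging-strand maturation. Fork protection was at 0.70 and chromatin assembly at 0.24. The 0.65 is the value of Dtl, in a group with Cdc6 and Gmnn. The 0.51 is the value of Fen1, which had few counts and did not pass. With 1 library left out, the median for lagging-strand maturation ran from 0.35 to 0.64. Of the genes in the licensing groups (ORC, licensing factors and their inhibitors, MCM2-7), 10 of 15 rose. Of the polymerase genes 6 of 9 rose, both against 21.3% of all tested genes. Genes within a group differed widely: ORC ran from -0.17 to 1.06 and helicase activation from -0.02 to 1.15. The groups hold 3 to 9 genes each, and differences between their medians were not tested.

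The count ratio of 2 partner subunits within a library does not depend on how libraries are scaled. For 8 partner pairs, the log2 ratio of counts is given as a description, since the pairs were chosen after the values were seen. Dbf4 to Cdc7 was 0.03, 0.37 and 0.21 in wild type and 0.98, 0.80 and 1.11 in the labelled knockout libraries. Pole to Pole2 was 0.95, 0.72 and 0.51 against 1.43, 1.82 and 1.77. In both pairs the ratio was higher in all 3 labelled knockout libraries. The ratio was also higher without overlap for Timeless to Tipin (difference of means 0.64), Chaf1a to Chaf1b (0.64) and Prim1 to Prim2 (0.47). It overlapped between the groups for Pola1 to Pola2 (0.16), Pold1 to Pold2 (-0.22) and Rpa1 to Rpa2 (-0.02). Among the pairs without overlap, Pole, Timeless and Chaf1a have longer transcripts than their partners, and Dbf4 and Prim1 have shorter ones. Chaf1a also shares exon bases with Ubxn6. The part of length and of shared bases in these ratios was not tested. For the 5 pairs without overlap the exact two-sided permutation p was 0.1 (adjusted over the 8 pairs 0.16), the smallest that 3 against 3 can give, so this design cannot pass a threshold of 0.05 for them.

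**Figure D4:**
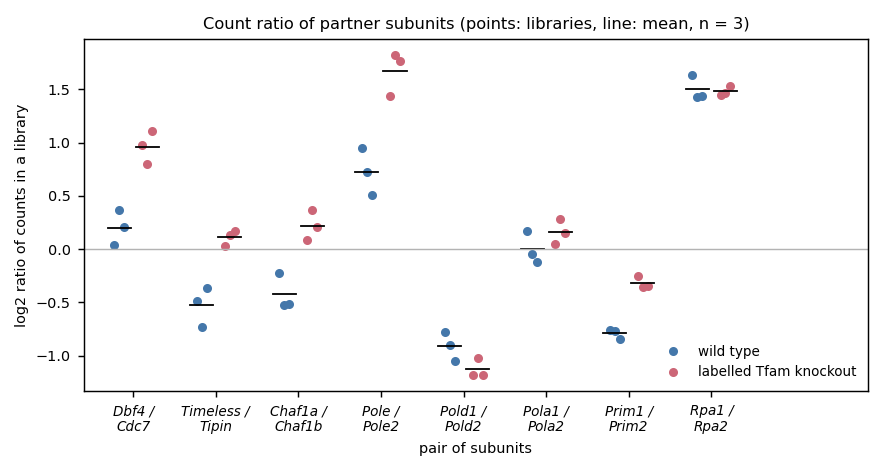
Log2 ratio of the raw counts of 2 partner subunits in each library (points; line: mean of 3 libraries; blue wild type, red labelled Tfam knockout). The red points lie above the blue ones for Dbf4/Cdc7, Timeless/Tipin, Chaf1a/Chaf1b, Pole/Pole2 and Prim1/Prim2, and overlap with them for the other 3 pairs.

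Longer transcripts had larger changes among these genes. Across the 54, the log2 fold change and transcript length had Spearman's rho = 0.35 (Pearson's r with log10 length 0.38), against 0.13 (0.12) across 13337 tested genes with a length; genes share libraries and are not independent replicates. The median length was 3426 bases for genes that rose and 2202 for those that did not pass. With offsets for length and GC content the rho of the 54 was 0.28, that of all genes -0.03, and 35 of the 54 were higher and 3 lower (Orc3, Rfc2 and Slbp).

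Of 30 further replication genes in the table, none of them among the 54, 20 rose and 5 fell, with a median of 0.37. These are 66.7% and 16.7%, against 21.3% and 22.9% of all tested genes. The helicase Recql4, which acts at origin firing, rose 3.28-fold (29.1 to 96.5 CPM), the PCNA unloader Atad5 1.93-fold and the alternative clamp loader subunit Chtf18 1.78-fold. The 5 that fell were 2 of the RNase H2 subunits, Rnaseh2c (log2 fold change -0.90) and Rnaseh2a (-0.27), the small polymerase delta subunit Pold4 (-0.45), the topoisomerase Top1 (-0.21) and Cul4a (-0.18), of which Rnaseh2a, Top1 and Cul4a lost the call in 5, 6 and 9 of 15 alternative analyses, so that as few as 2 were lower with library totals and without wild type 1 or labelled knockout 3. The remaining RNase H2 subunit, Rnaseh2b, singled out after its value was seen, rose 1.42-fold. Genes that supply deoxynucleotides rose in 5 of 9 cases (55.6%) and fell in 1 (11.1%), against the same 21.3% and 22.9%. Among those that rose were the ribonucleotide reductase subunits Rrm2 (0.84) and Rrm1 (0.58) and the thymidylate synthase Tyms (0.67). The dNTP hydrolase Samhd1 fell (-0.33).

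Of the listed mitotic genes, 33 of 34 rose (97.1%, against 21.3% of all tested genes), with a median of 0.74. They were led by Ccna2 (1.21), Aurka (0.99), Cdc20 (0.99) and Ncaph (0.97). Their share was not tested against that of the replication genes. Of the regulators of entry into S phase, 8 of 28 were higher and 7 lower, with a median of 0.07, shares near the 21.3% and 22.9% of all tested genes. The largest changes were decreases, in the CDK inhibitors Cdkn1c (-1.52), Cdkn1a (-1.27) and Cdkn1b (-0.93) and in cyclin D3, Ccnd3 (-0.88). The E2F genes among these regulators were singled out after their values were seen. E2f6 (0.59), E2f2 (0.52), E2f8 (0.44), E2f3 (0.44) and E2f1 (0.41) were higher, while E2f4 (-0.14) and E2f5 (0.18) did not pass. Nuclear genes for the separate machinery that copies mitochondrial DNA had 4 of 12 higher, Mgme1 (0.58), Lig3 (0.42), Top3a (0.42) and Polrmt (0.30), and 1 lower, the mitochondrial single-strand binding protein Ssbp1 (-0.76), with a median of 0.06; these shares, 33.3% and 8.33%, stand beside 21.3% and 22.9% over all tested genes and rest on few genes. The call for Polrmt was lost without wild type 3 (adjusted p = 0.0706, edgeR).

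**Figure D5:**
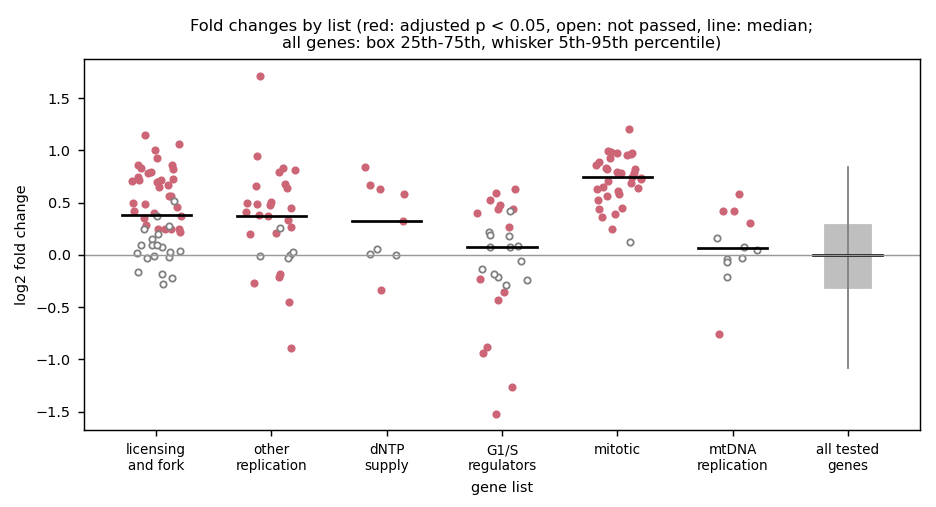
Log2 fold change of each tested gene by list (red passed, open did not, line median); the last column gives the 25th to 75th and 5th to 95th percentiles of all tested genes. The licensing and fork genes have a median of 0.39 with none lower, the mitotic genes 0.74, the G1/S regulators 0.07 and the mitochondrial replication genes 0.06.

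Scaling and single libraries moved the number of calls but not the direction of any of the 34. With libraries scaled by totals alone, which shifts the median of all genes by 0.10, 39 of the 54 were higher and none lower, against 3834 higher and 2372 lower over all genes (2859 and 3067 with TMM). The count was 28 without wild type 3, the fewest with 1 library left out, and 36 without wild type 1, the most. Of the 34 genes, 28 kept the call in all 15 alternative analyses; the other 6 are Orc4, Mcm6, Mcm7, Pola2, Rfc5 and Chaf1b. Of the 20 that did not pass, 10 passed in at least 1 alternative: Wdhd1 in 5, Gins3 and Prim2 in 4 each, Fen1, Orc6, Rfc2 and Slbp in 2 each, and Dnmt1, Orc3 and Rpa3 in 1 each, with Orc3, Rfc2, Rpa3 and Slbp as lower and the rest as higher.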

How the data were processed

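Poly(A) RNA libraries of 6 BV2 samples were made with a kit that does not mark strand, per the labels' protocols. Reads were processed with bcl2fastq 2.17, HISAT2 2.1.0, SAMtools 1.9 and featureCounts 2.0.0 on GRCm39, per the submitters' processing notes. The sources used here do not say how shared and multi-mapping reads were counted. The deposited count table holds raw counts per gene, each gene with at least 6 counts in all. A second table by the authors is on a log2 scale; its values equal log2 of a count scaled to a common total plus 8.

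The quasi-likelihood test of edgeR 4.0.16 (R 4.3.3; low counts removed by filterByExpr, TMM scaling) ran over 13403 genes, and each SE is the absolute log2 change divided by the root of its F statistic. Lengths, overlaps and copies (BLAST 2.17.0, 95% identity over 200 bases) came from GENCODE M21, another build (GRCm38), and promoters from RefSeq GRCm38.p6. Alternatives used DESeq2 1.42.0, limma 3.58.1 (voom, and the authors' log2 table), other scalings, filters and offsets, and each library left out. The genes and lists were chosen with earlier results of these data known. Any of the 54 genes could be named; from other lists up to 4 called genes were taken by size of change among those averaging 1 CPM or more, and all of up to 5 calls in one direction. On simulated counts with 13269 genes tested, edgeR recovered 22% of genes changed 1.25-fold, 94% at 1.5-fold and 100% at 2-fold. The simulation changed only 200 genes and gave every gene the same dispersion, whereas 44.2% of tested genes were called in the data. These percentages thus check the code and do not give the power for the 54 genes.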

Additional observations from a re-analysis of the deposited data

How the results depend on the processing

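The 54 replication genes gave 28 to 36 higher and 0 to 3 lower calls with 1 library left out; the 3 lower ones, without labelled knockout 1, were Rfc2, Rpa3 and Slbp, and with offsets for length and GC content 3 were lower too. All genes gave 2353 to 2843 higher and 2488 to 2978 lower calls with 1 library left out. Medians on the log2 scale with 1 library left out were 0.37 to 0.46 for the 54, 0.58 to 0.76 for MCM2-7, 0.14 to 0.25 for the origin recognition complex, 0.33 to 0.51 for polymerases and primase, and 0.35 to 0.46 for single-strand binding. With library totals the medians were 0.48 (all 54), 0.30 (origin recognition), 0.75 (licensing factors and their inhibitors), 0.73 (MCM2-7) and 0.87 (helicase activation). The further medians were 0.47 (polymerases), 0.26 (clamp and loader), 0.49 (single-strand binding) and 0.80 (fork protection), and Tfam passed as higher (0.24, adjusted p = 0.0403, edgeR). With limma on the authors' log2 table they were 0.49, 0.30, 0.75, 0.74, 0.87, 0.49, 0.26, 0.50 and 0.79 in that order, and Tfam was at 0.24 (adjusted p = 0.0349, limma). Both settings lack a correction for composition, and the median of all genes moved by 0.10 and 0.09. With the offsets the medians were 0.33 (all 54), 0.58 (MCM2-7), 0.28 (polymerases) and 0.34 (single-strand binding), and with a filter of 5 CPM in 3 libraries, which removes Orc1, that of origin recognition was 0.15.

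Values near 0 that passed in no analysis changed sign. With library totals Orc5 was at 0.072, Cdc7 at 0.083 and Gins4 at 0.077, and with the log2 table at 0.074, 0.089 and 0.079. With offsets Gins4 was at 0.050, Pold3 at -0.0076, Pole2 at -0.00040 and Rfc1 at -0.050. With 1 library left out Orc5 ran from -0.069 to 0.037, Gmnn from -0.018 to 0.18, Cdc7 from -0.068 to 0.069, Gins4 from -0.038 to 0.019, Pole2 from -0.081 to 0.077, and the difference of Rpa1 and Rpa2, which has no test here, from -0.062 to 0.048. The cause of these shifts was not tested. DESeq2 gave 34 higher and 0 lower genes of the 54, limma-voom 35 and 0. Analyses of partner pairs and other lists were added after the data were seen; the sign of the difference was the same in all 15 alternatives for every pair but Rpa1 and Rpa2, including Pola1 and Pola2 (0.029 to 0.25) and Pold1 and Pold2 (-0.30 to -0.15), whose groups overlap. With the replicate number as a block, 32 of the 54 genes were higher and none lower (2501 and 2754 of all genes), Pola2 and Rfc5 losing the call. Same-numbered libraries did not deviate together (correlations of -0.104, -0.114 and 0.0395). These values show no sign of pairing by number, but so few cannot exclude that same-numbered libraries were prepared together. The precision of Orc1 and Fen1 is limited by counts of 16 to 110 per library.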
